A study of Drosophila melanogaster with 4 samples.

Results

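The subject here is the HP1a clusters in the euchromatic part of chromosome arm 3L of Drosophila melanogaster. They were chosen by position alone, as the clusters of the series list on 3L that start above 200000 and end below 22543558. This leaves out the distal 200 kb and the proximal 2 Mb. The rule kept 299 of the 3891 clusters in the series list, and 299 of the 375 on 3L. The assay was ChIP-seq, in which DNA bound by a protein is pulled down and sequenced, with the HP1a antibody wa191 on nuclei of wild-type Oregon-R larvae at the third instar. All 4 libraries share this genotype, strain and stage, and they are 2 replicates of the HP1a ChIP, each with an input of the same number, which makes 2 inputs. The labels name no tissue, so a site bound in few cells and a site bound weakly in all cells cannot be told apart.

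HP1a is a chromodomain protein that reads methylation of lysine 9 on histone H3 and builds the packed chromatin around centromeres and telomeres. Its chromoshadow domain forms dimers and recruits other silencing proteins. On the gene-rich arms it is also known from scattered sites, some of them at active genes and some at transposons, and these lie far from the large heterochromatic blocks. The clusters on 3L between the limits are sites of that scattered kind by position. The clusters are on FlyBase release 5 and the gene table consulted is on Release 6, so genes, exons and promoters under the clusters were not examined. No sequence was printed for the same reason.

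Each cluster carries 1 value of the authors, taken to be a log2 enrichment over input, so a value of 1 is a 2-fold enrichment. Read numbers are unknown for libraries and clusters alike. The spread between the replicates is therefore the only measure of error, and nothing in the labels says whether they came from separate collections of larvae. Clusters are not replicates of each other, so no p-value over clusters is given.

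HP1a was sparse and weak on euchromatic 3L. The 299 clusters covered 2.81% of the 22.3 Mb between the limits, with a median width of 1937 bp and a median value of 0.44, or 1.35-fold. The middle 50% of the values lay between 0.32 and 0.60, and the whole range was 0.05 to 3.06. Only 30 clusters had a value of at least 1. Inside the same limits the replicate 1 list had 169 clusters over 366 kb and the replicate 2 list had 160 over 346 kb. Their median values were 0.63 and 0.54, and their median widths 1986 bp and 1964.5 bp. Cover was 1.64% in replicate 1 and 1.55% in replicate 2, a mean of 1.59% ± 0.06 (SD, n = 2).

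The replicates found the same sites for most of their clusters. In replicate 1, 131 of 169 clusters (77.5%) overlapped a replicate 2 cluster by at least 1 bp, against 87.9% over the whole replicate 1 list. In replicate 2, 127 of 160 (79.4%) overlapped a replicate 1 cluster, against 81.4% over the whole replicate 2 list. Their 95% Wilson intervals were 70.6% to 83.2% and 72.5% to 84.9%. The share over the whole list lay above the interval in replicate 1 and inside it in replicate 2. These intervals cover counting error only and treat the clusters of a library as independent. The whole lists also contain these same clusters, so no difference from them was tested. Counted in bases, the length under both replicates was 0.611 of the length under either (Jaccard index). Shared clusters were stronger and wider, with a median value of 0.65 in replicate 1 and 0.59 in replicate 2, against 0.46 and 0.44 for unshared ones. Their median widths were 2013 bp and 2008 bp, against 1665 bp and 1577 bp for unshared ones. Nearly all of these clusters are in the series list, 168 of 169 from replicate 1 (99.7% over the whole list) and all 160 from replicate 2 (99.9%). The exception was a replicate 1 cluster from 15507170 to 15508620 with a value of 0.41.

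Seen from the series list, the clusters fell into 4 kinds. On 3L, 126 of 299 (42.1%) overlapped clusters of both replicates, against 52.1% over the whole series list. Another 37 (12.4%) overlapped replicate 1 alone, against 8.15%, and 32 (10.7%) replicate 2 alone, against 11.5%. The remaining 104 (34.8%) overlapped neither replicate, against 28.2%. The Wilson interval was 36.7% to 47.8% for the share in both and 29.6% to 40.3% for the share in neither, and it covers counting error only. On the other major arms, cut in the same way, the share in both was 36.6% on X, 41.6% on 3R, 47.3% on 2L and 50.2% on 2R. The share in replicate 1 alone ran from 11.2% on X to 14.4% on 2L, so 3L was not set apart from these arms in either share.

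Counted over their whole length in the series list, clusters found in both replicates were 54.8% of the bases under the 299 clusters. Those in neither were 23.0%. The bases under clusters of both replicates were fewer, 269719 against 628249 under the 299 clusters. These shares of bases were not computed over the whole series list. Clusters in both had a median width of 2197 bp and a median value of 0.55, and none was narrower than 1725 bp. Clusters in neither had a median width of 1250 bp and a median value of 0.40. The clusters of replicate 1 alone and replicate 2 alone had the lowest median values in the series list, 0.26 and 0.31. Each of these 69 had a lower value in the series list than in the replicate that found it, where the medians were 0.46 in replicate 1 and 0.44 in replicate 2. The 69 were picked because only 1 replicate list had them, so their lower series values are not independent of that choice.

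Value did not rise steadily with width. The 59 clusters narrower than any replicate cluster (under 1301 bp) had a median value of 0.41. The 116 between 1301 bp and 2000 bp had a lower median, 0.30, and the 87 from 2000 bp to under 3000 bp a higher one, 0.56. The share found in both replicates was 0 of 59, 26 of 116 (22.4%) and 72 of 87 (82.8%) in these bands. It was 18 of 27 from 3000 bp to under 5000 bp and 10 of 10 above that. Over the whole series list the share was 52.1% for clusters of any width, and it was not computed by width. A wider cluster has more room for an overlap of 1 bp, and the part of this in these shares was not tested. Across all 299 clusters the Spearman correlation of value and width was 0.411. Across clusters found in both, the Spearman correlation was 0.727 (126 clusters). Across clusters in neither it was -0.241 (104 clusters). These are descriptions over clusters that share the same libraries.

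**Figure D1:**
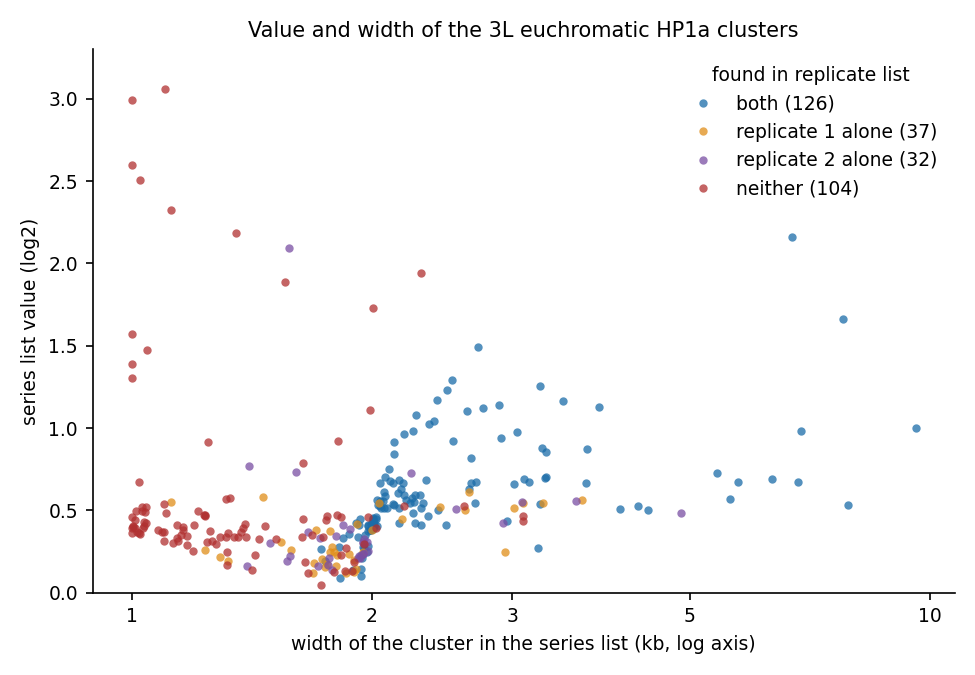
Value in the series list (log2, vertical axis) against width (kb, log axis) for the 299 clusters, coloured by the replicate lists that overlap them. Above about 2 kb most points are found in both replicates, while the clusters of highest value are mostly narrow and found in neither.

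The clusters of highest value in the series list were mostly not the ones the replicates found. Of the 10 highest, 8 overlapped neither replicate, 1 overlapped replicate 2 alone and 1 overlapped both. The first 5 spanned 21492404 to 21493504 with a value of 3.06, 14719570 to 14720570 with 2.99, 17913010 to 17914010 with 2.60, 9930522 to 9931546 with 2.51 and 6034254 to 6035374 with 2.32. Their widths were between 1001 bp and 1121 bp, below the narrowest replicate cluster of the whole series. The next in neither list were at 21366792 to 21368144 (2.19), 5112790 to 5115094 (1.94) and 17724106 to 17725660 (1.89), which are 1353 bp, 2305 bp and 1555 bp wide and so wide enough for a replicate list. The nearest cluster of either replicate lay between 9.28 kb and 154 kb away from these 8.

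In the replicate lists themselves, strong clusters were mostly shared. All 20 replicate 1 clusters with a value of at least 1 overlapped a replicate 2 cluster, and 18 of 21 such replicate 2 clusters overlapped replicate 1. In the series list, by contrast, 15 of the 30 clusters with a value of at least 1 overlapped both and 14 overlapped neither. Over the whole lists, overlap shares were computed only for clusters of any value. They were 87.9% in replicate 1 and 81.4% in replicate 2, and in the series list 52.1% in both and 28.2% in neither. Whether strong clusters split in this way outside 3L was therefore not examined. On 3L, the 15 in both were 2269 bp to 7771 bp wide, with a median of 2713 bp. The 14 in neither were 1001 bp to 2305 bp wide, with a median of 1074 bp, and 9 of them were narrower than any replicate cluster. The 3 strong replicate 2 clusters without a replicate 1 partner lay at 1424865 to 1426332 (3.99), 13572202 to 13573515 (1.07) and 14818235 to 14819811 (1.02). The first had the highest value of either replicate list between the limits and a series value of 2.09, and the nearest replicate 1 cluster was 128163 bp away.

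Among clusters found in both replicates, the strongest was at 5451856 to 5458572. Replicate 1 split it into a pair of clusters with values of 2.62 and 2.38, and replicate 2 had 1 cluster of 2.07 over its proximal part, from 5455168 to 5458062. The series value was 2.16 (4.47-fold). Of the replicate 1 pair, the cluster over the proximal part was the one with 2.38, so the value of replicate 1 minus that of replicate 2 was 0.30 over matching sequence. The other cluster of the pair shares most bases with the series cluster, and with it the difference was 0.55.

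The second strongest, at 20469964 to 20477734, was found whole by both replicates, with 1.76 in replicate 1 and 1.67 in replicate 2 over 7583 bp and 7226 bp. Next came 2585642 to 2588354, with 1.41 in replicate 1 and 1.61 in replicate 2. The replicates differed little at 11284938 to 11287454, where both had 1.32, at 1246482 to 1248964, with 1.31 and 1.28, and at 13007552 to 13009966, with 1.18 and 1.17. They differed more at 14042356 to 14045238 (1.33 and 1.04), 22092844 to 22096090 (1.33 and 1.14) and 15288494 to 15291966 (1.39 and 1.24). Over shared clusters with a series value of at least 1 the median absolute difference was 0.16, against 0.11 over all 126. A cluster at 16516200 to 16518832 stood out among the shared ones, because replicate 1 had 1.74 and replicate 2 had 1.40 but the series list only 1.11. That was the largest shortfall of a series value against the mean of the replicates, 0.47 below it. These clusters, other than those in the lists of highest value or width, were chosen after their values were seen.

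The 10 widest clusters were 5409 bp to 9593 bp wide, and each was found in both replicates, where 1 bp of overlap was enough. The part covered went down to 43.3% in replicate 1, at 13019664 to 13027560, and to 43.1% in replicate 2, at 5451856 to 5458572. The share for clusters this wide over the whole series list was not computed. The widest, at 17860758 to 17870350, had a value of 1.12 in replicate 1 and 0.95 in replicate 2, over 8071 bp and 9349 bp. A neighbour at 17850610 to 17857494 had 1.01 in replicate 1 and 1.06 in replicate 2. Together with a shared cluster at 17839002 to 17841026 they form a stretch in which every cluster was found in both replicates. At 13019664 to 13027560 the series list had 1 cluster of 7897 bp, where replicate 2 had 3 with values of 0.67, 0.60 and 0.49. Replicate 1 had 1 of 3423 bp there, with a value of 0.75. The other wide clusters were weaker than the strongest shared ones, as at 14747334 to 14754168 (series value 0.67), 20410666 to 20417014 (0.69), 3485344 to 3491094 (0.67), 9434738 to 9440352 (0.57) and 8098314 to 8103722 (0.73).

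The replicates ranked the shared clusters in much the same order. Over the 126, Pearson's r was 0.898 and the Spearman correlation 0.808, as a description across clusters of the same libraries. Replicate 1 was higher in 85 and replicate 2 in 41, with a median of replicate 1 minus replicate 2 of 0.06 and quartiles of -0.04 and 0.17. The absolute difference was under 0.2 in 99 of 126, and its median was 0.11. Where the replicate clusters that share most bases with each other were paired instead, a setting added after seeing the data, 3 pairs changed. The largest gaps were then at 10729298 to 10731306, with 0.65 in replicate 1 and 0.23 in replicate 2, and at 14266314 to 14268308, with 0.63 and 0.22. Replicate 1 covered 99.4% and 99.7% of these clusters, and replicate 2 covered 86.9% and 88.5%. The series value lay below both replicates in 65 of the 126, between them in 60 and above both in 1, with a median of 0.05 below their mean.

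**Figure D2:**
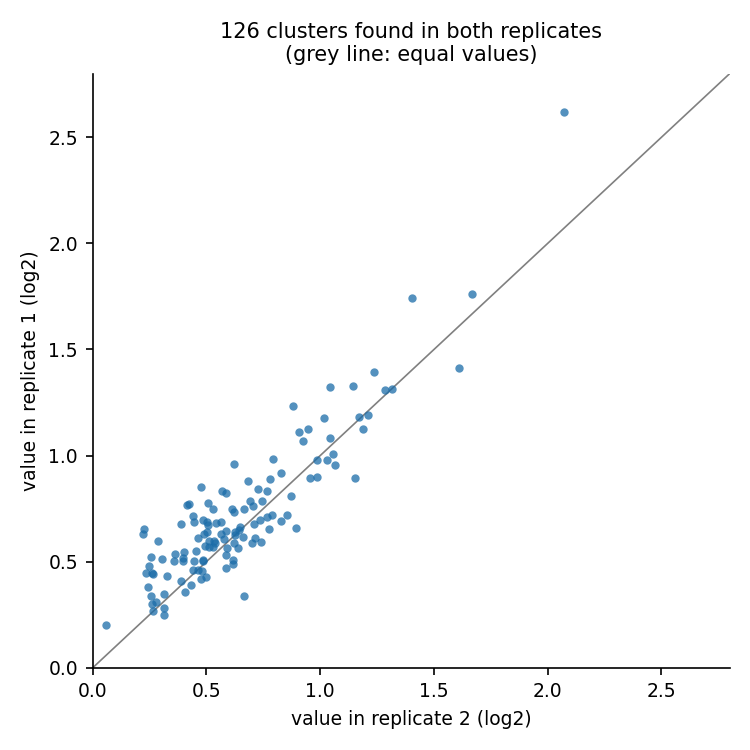
Value in replicate 1 (vertical axis) against value in replicate 2 (horizontal axis), both log2, for the 126 clusters found in both. The grey line marks equal values, and 85 points lie above it.

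Clusters were spread along the whole of 3L between the limits, and unevenly. In parts of 5 Mb, replicate 1 had 9.38, 5.80, 6.40, 9.40 and 6.29 clusters per Mb from the distal to the proximal end, and replicate 2 had 7.50, 5.00, 7.20, 8.80 and 7.47. The first part holds 4.80 Mb and the last 2.54 Mb of the region. Density was thus lowest in both replicates from 5000001 to 10000000, and the part next to the proximal limit was not the densest in either. Its cover was 1.56% and 1.76%, against 2.05% and 1.95% from 15000001 to 20000000. Median values per part ran from 0.57 to 0.66 in replicate 1 and from 0.49 to 0.59 in replicate 2, with no steady rise towards the centromere.

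In 45 bins of 500 kb, the median was 3 clusters in each replicate. The counts of both replicates correlated over the bins with a Spearman correlation of 0.796, again as a description. The bin with the highest cover was 17500001 to 18000000, with 10 clusters and 5.75% cover in replicate 1 and 8 clusters and 5.31% cover in replicate 2. It contains the widest cluster and was the only bin with at least 5% cover in both. The bin from 500001 to 1000000 had as many in replicate 1, 10, and 7 in replicate 2, and it had the highest count in the series list, 15 against 14. At the other end, 10000001 to 10500000 had no cluster in any of the 3 lists, and 12000001 to 12500000 had none in either replicate.

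**Figure D3:**
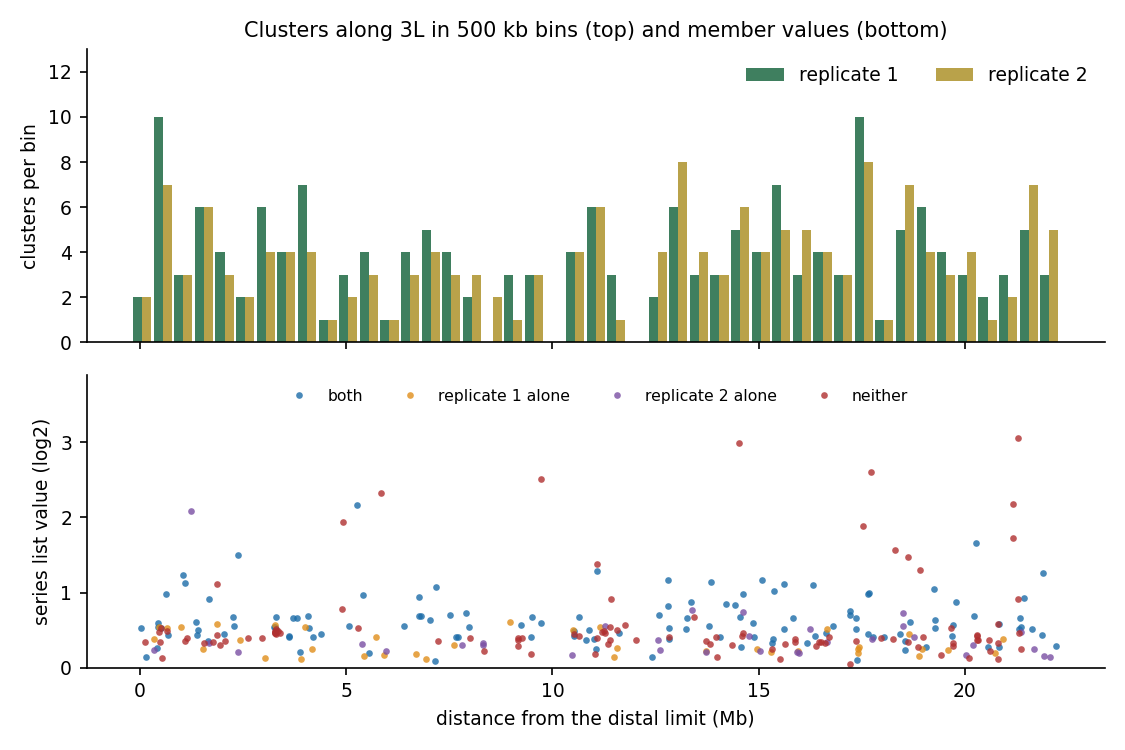
Top, clusters per 500 kb bin in replicate 1 and replicate 2 against distance from the distal limit (Mb). Bottom, series value (log2) of each of the 299 clusters at its position, coloured by the replicate lists that overlap it. Clusters lie along the whole region and the bin with the highest cover has 10 clusters in replicate 1 and 8 in replicate 2, while the points above 2.2 are all found in neither replicate.

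The longest stretches without a cluster in the series list held no whole cluster of either replicate. This largely follows from the choice of stretches, since nearly all replicate clusters overlap a cluster of the series list. The stretches were 9931547 to 10674595 (743 kb), 8540607 to 9168833 (628 kb), 4588145 to 5104169 (516 kb), 6168145 to 6597625 (429 kb) and 13029661 to 13434255 (405 kb). The median distance between neighbouring clusters was 37.8 kb, with quartiles of 9.13 kb and 97.0 kb.

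Many clusters had close neighbours. With clusters within 20 kb of the next put in 1 group, 172 of 299 (57.5%) were in groups of 2 or more and 127 stood alone. Only 7 groups had 4 or more. The group with most members, 11 from 3459932 to 3504368, spanned 44.4 kb, and its clusters covered 63.3% of that length in the series list, against 34.9% in replicate 1 and 19.5% in replicate 2. It was of moderate strength throughout, with values between 0.45 and 0.67, and none of its clusters reached a value of 1. Replicate 1 had 5 clusters there with values of 0.63 to 0.87, and replicate 2 had 4 with values of 0.42 to 0.76. Of the 11, 4 were found in both, 1 in replicate 1 alone and 6 in neither.

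**Figure D4:**
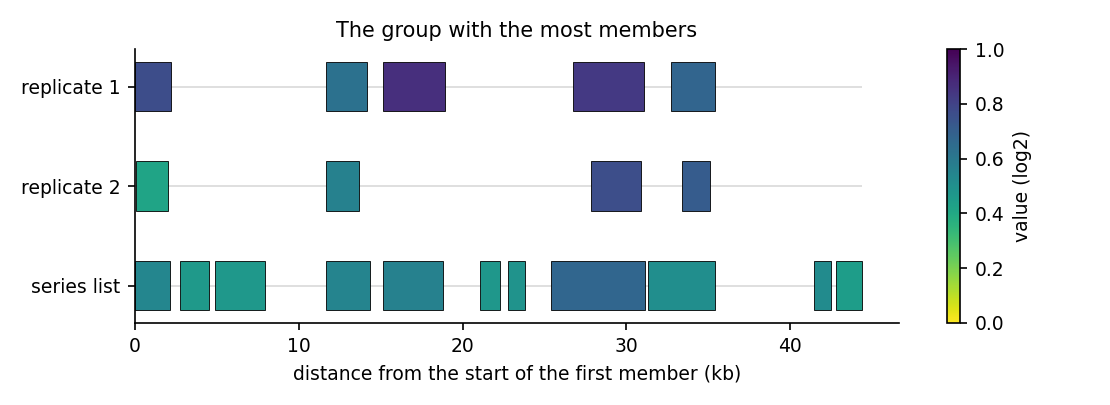
The group of 11 clusters, with distance from its first base (kb) on the horizontal axis and the replicate 1, replicate 2 and series lists as rows. Each box is a cluster drawn to scale and coloured by its value (log2), and the series list also has boxes where neither replicate has one.

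The next groups were mixed in kind. The 8 clusters from 21478344 to 21562486 included the cluster of highest value and 3 others in neither list, beside 3 found in both with series values of 0.52, 0.67 and 0.54. The 6 from 17555870 to 17612968 were weak, with a median of 0.31, and lay in the bin with the highest cover. Of the 5 from 12999054 to 13029660, 4 were found in both replicates, among them the strong cluster at 13007552 and the wide one at 13019664. The 5 from 21001690 to 21021704 had a median of 0.33, and 3 of them were in neither list.

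Values near the limits lay within the range of the rest. The most distal cluster inside, 222496 to 224628, had a series value of 0.53, and the nearest outside, 140104 to 141332, had 0.23. The most proximal inside, 22400016 to 22401992, had 0.29, and the nearest outside, 22710122 to 22711602, also had 0.29.

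Against the other major arms, cut in the same way, 3L was a thinly covered arm. It had 7.36 ± 0.28 clusters per Mb in the replicate lists, against 18.0 ± 0.6 on X, 10.3 ± 0.6 on 2R, 8.36 ± 0.41 on 2L and 6.52 ± 0.19 on 3R (SD, n = 2). The difference of 3L from X was -10.0 in replicate 1 and -11.3 in replicate 2, and from 3R 0.91 and 0.78. For each of these 4 arms the replicate values of 3L lay apart from those of the other arm. The order against 2L did not hold in the series list, where 3L had 13.4 clusters per Mb and 2L 13.3, and that against X, 2R and 3R did. The series list comparison with 2L and 2R was added after seeing the data. In the replicate lists the values also lay apart for cover, with 1.59% ± 0.06 on 3L, against 4.67% ± 0.07 on X, 2.61% ± 0.08 on 2R, 2.33% ± 0.06 on 2L and 1.36% ± 0.05 on 3R. No test was run on these differences, since the smallest p that an exact permutation of 2 pairs allows is 0.5.

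Clusters on 3L were also weak in the replicate lists beside those of the other arms except 3R. The median value was 0.58 ± 0.06 on 3L, against 0.78 ± 0.03 on X, 0.67 ± 0.02 on 2L and 0.66 ± 0.01 on 2R (SD, n = 2). It was 0.59 ± 0.04 on 3R, where 3L was higher in replicate 1 and lower in replicate 2, so these did not differ beyond their spread. Against 2R the difference was -0.04 in replicate 1 and -0.11 in replicate 2. Series list medians were 0.44 on 3L, 0.54 on X, 0.45 on 2L, 0.46 on 2R and 0.42 on 3R, so the gap to 2L and 2R was small there. Clusters with a value of at least 1 made up 11.8% of the 3L clusters in replicate 1 and 13.1% in replicate 2. On 2L these shares were 26.1% and 22.6%, on 2R 27.1% and 25.7%, on X 27.0% and 20.9%, and on 3R 15.2% and 17.1%. In the series list the share was 10.0% on 3L, against 9.89% on X, 14.1% on 2L, 17.4% on 2R and 10.7% on 3R, so the lower share on 3L than on X was seen in the replicate lists alone. Median widths were close on all arms, 1975 ± 15 bp on 3L and 1980 ± 18 bp on 3R, and at most 2054 ± 46 bp, on 2L.

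**Figure D5:**
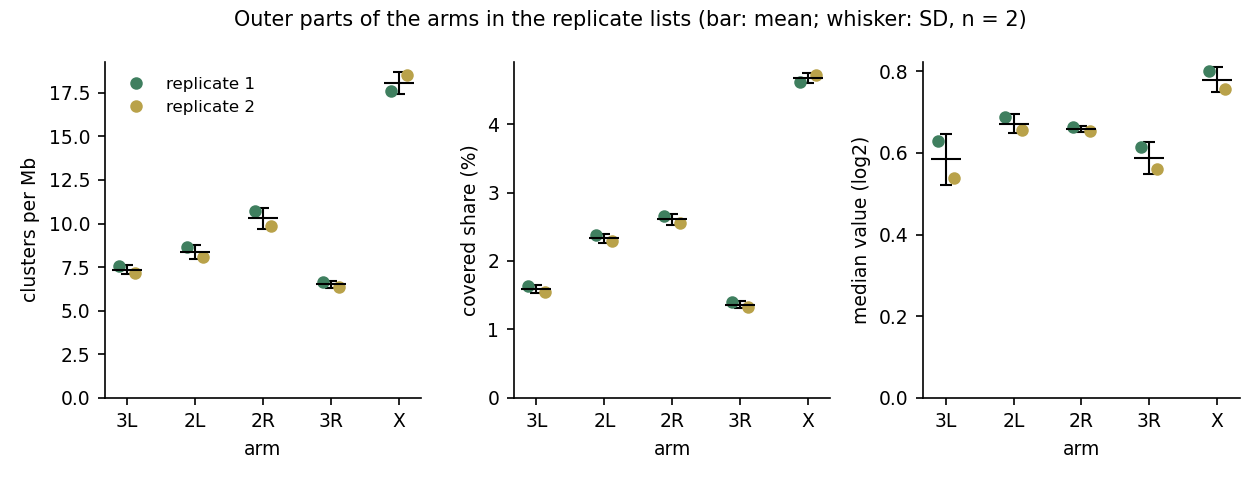
Clusters per Mb, covered share (%) and median value (log2) of the outer parts of the 5 major arms in replicate 1 and replicate 2 (points), with the mean (bar) and SD (whisker, n = 2). In these replicate lists 3L is lower than X, 2R and 2L in all 3 panels and above 3R in the first 2, while in the series list its density of 13.4 per Mb was above the 13.3 of 2L.

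The share of series clusters found in neither replicate was 34.8% on 3L, against 40.0% on X, 33.8% on 3R, 29.8% on 2R and 29.6% on 2L. The Wilson interval of 3L, 29.6% to 40.3%, overlapped that of each other arm. The highest value in neither list was 3.06 on 3L, against 4.64 on 3R, 3.77 on X and 3.51 on both 2L and 2R, so clusters of high value in neither list were present on each of the 5 arms. The clusters found in both replicates had a median value of 0.55 on 3L, against 0.75 on X, 0.65 on 2L, 0.63 on 2R and 0.54 on 3R.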

How the data were processed

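The authors' aligner was Bowtie 0.12.7, as the submitters' processing notes give it. Per the labels, each input served as background for the ChIP library of the same replicate number. The cluster caller, its threshold and the way replicates were combined were not given in the sources used. The deposited values, 1 per cluster, are read as log2 enrichment. No header names their unit. Per the file headers, coordinates are on FlyBase release 5; they count from 1.

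Clusters were counted as shared when they overlapped by at least 1 bp. The value of a replicate at a series cluster is that of the cluster sharing most bases. Overlapping clusters were merged for cover. Intervals are 95% Wilson intervals. The overlap and cover code was tested on simulated lists with planted overlaps. Named regions were the 10 highest and 10 widest clusters, the 5 highest in neither replicate, the 3 largest replicate differences, the 5 longest empty stretches and the 5 largest groups. The clusters and lists were chosen with earlier results of these data known. Software was scipy 1.17.1, pandas 2.3.3 and numpy 2.4.6 under Python 3.11.15, with matplotlib 3.10.9 for plots. Alternatives were other limits, joining within 1 kb, a 50% overlap, width and value thresholds, the other lists and leaving out either replicate.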

Additional observations from a re-analysis of the deposited data

How the results depend on the processing

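Of 43 alternative values for 10 results, 27 moved by less than the replicate spread, the counting interval or, for counts, 1.5 times, and 1 changed sign. The 27 include every value from leaving out a replicate, whose place there was fixed in advance and is no sign of stability. The change of sign was in the density of 3L minus that of 2L, -0.998 as the mean of the replicates and 0.0720 in the series list. This comparison was added after seeing the data, and the cause was not tested. The number of clusters was 169 in the replicate 1 list, 160 in the replicate 2 list and 195 with those found in at least 1 replicate, the last chosen after seeing the data. The share found in both replicates was 59.3% at or above the median value and 52.5% among clusters at least as wide as the narrowest replicate cluster. The share in neither was 28.0% and 20.0% under the same settings. The median value was 0.55 for clusters in both and 0.50 without those in neither, also chosen after seeing the data. With the series list in place of the replicates, 3L had 13.4 clusters per Mb and a cover of 2.81%, and its density minus that of X was -21.6 and minus that of 3R 1.40. Joining within 1 kb gave 7.05 per Mb, and the stronger clusters of each replicate, cut at the median value, covered 0.953%. Leaving out either replicate gave 7.16 to 7.56 clusters per Mb, 1.55% to 1.64% cover, -11.3 to -10.0 against X, 0.78 to 0.91 against 3R, -1.09 to -0.91 against 2L and -3.15 to -2.71 against 2R. With 2 replicates such values cannot leave the SD. No paired analysis was possible because the inputs entered only through the cluster lists. Read depth is unknown, so a missing overlap need not mean that a site was unbound.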

Other observations

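The exact values of the strongest clusters in neither replicate were unlike those of the other clusters on 3L. The most repeated fractional part of a value in the series list, 0.77, was held by 63 clusters. A value was counted as tied to it when the difference was the log2 of a ratio of whole numbers with a denominator of at most 40, within 1e-06 of the ratio. Of the 13 clusters on 3L with a value of at least 1.5, 11 were tied in this way, among them all 10 found in neither replicate. Of the 17 with a value of 1 to under 1.5, 3 were tied, and of the 269 below 1, 15 (5.58%). By kind, 20 of the 104 clusters in neither (19.2%) and 5 of the 126 in both (3.97%) were tied. The cluster at 14719570 to 14720570 gave a ratio of 14 to 3 and that at 9930522 to 9931546 a ratio of 10 to 3. The read numbers behind these values are unknown, and their part in the high values was not tested. This measure was chosen after seeing the data. It was computed for the clusters on 3L alone, so the tied share over the whole series list is unknown. The pattern is therefore not shown to be particular to 3L.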
